A study of Arabidopsis thaliana with 9 samples.

Results

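The transcripts described here had a mean log2 intensity at least 1.5 lower than wild type in both of 2 Arabidopsis lines impaired in lignin synthesis. The threshold, -1.5 on the log2 scale, was applied to each line's mean of 3 arrays minus the wild-type mean of 3 arrays. It was met by 186 of 22746 probe sets (0.818%), each a group of short oligonucleotides on an Affymetrix array that reads 1 transcript or a few related ones. Of these members 178 could be given 1 gene name, and 8 could not because the probe set is shared by related genes or the sources of its name differ. Both differences from wild type chose the members, so they are given below as a description, with no test.

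RNA came from inflorescence stems of plants in the Columbia-0 background, 1.5 months old, grown at 21 °C with 16 h of light and 8 h of darkness. The 3 groups were the loss-of-function mutant ccr-1, an HCT-RNAi line in which RNA interference targets HCT, and the wild type (WT), with 3 arrays each. CCR1 (cinnamoyl-CoA reductase) makes the first intermediate committed to lignin monomers, and HCT (a hydroxycinnamoyl transferase) acts upstream of it. The labels name neither the promoter of the interference construct nor the ccr-1 lesion. They also do not say whether replicate arrays stem from different plants, so p-values measure only array-to-array spread, which may be technical. A stem sample mixes many cell types, and in it fewer cells of a type cannot be told apart from less RNA per cell.

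Lignin stiffens the secondary walls that xylem vessels and fibres lay down inside their primary walls, together with cellulose and xylan. NAC and MYB transcription factors switch on the genes of that wall in a cascade. Plant cells also read their surroundings through receptor kinases at the plasma membrane, which signal through calcium and kinases to WRKY, AP2/ERF and zinc finger factors, and the same early genes answer to microbes, wounding and touch. A further programme, active in darkness and when sugar is short, releases sugars from walls and stores and recycles amino acids.

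Neither targeted gene was a member. HCT (AT5G48930) had log2 intensities of 11.94 to 11.97 in ccr-1, 8.90 to 9.00 in HCT-RNAi and 12.43 to 12.54 in WT. CCR1 (AT1G15950) lay at 10.01 to 10.17 in ccr-1, 11.07 to 11.15 in HCT-RNAi and 11.85 to 11.90 in WT. Median log2 intensities of the 9 arrays lay between 6.92 and 7.04. Markers of other organs also differed between the groups. All 10 floral organ markers that could be named were higher in both lines than in WT, with summed linear intensities of 3048 to 3189 in ccr-1, 1059 to 1088 in HCT-RNAi and 289 to 308 in WT. The 8 seed storage markers summed to 75262 to 78141 in ccr-1, 148 to 151 in HCT-RNAi and 148 to 159 in WT. By the authors' detection calls, 8 seed markers were present on every ccr-1 array, 1 on every HCT-RNAi array and 0 on every WT array. For the floral markers these counts were 10 in ccr-1, 10 in HCT-RNAi and 2 in WT. The 2 xylem markers that could be named, CESA8 and XCP1, summed to 2648 to 2822 in ccr-1, 2573 to 2794 in HCT-RNAi and 6086 to 6619 in WT. Such a sum weighs the brighter gene more, and CESA8 is itself a secondary wall gene. The median log2 difference of these 2 from WT was -0.83 in ccr-1 and -1.17 in HCT-RNAi. Both were called lower in each line, but XCP1 fell less than CESA8, above all in ccr-1. The similar sums of the lines therefore do not hold for XCP1. The 2 phloem markers summed to 546 to 566 in ccr-1, 909 to 937 in HCT-RNAi and 955 to 1047 in WT. Of these 2, 1 was lower and 1 did not pass in ccr-1, and 1 was higher and 1 lower in HCT-RNAi. The 3 epidermis markers, all higher in both lines, summed to 1815 to 1867 in ccr-1, 1454 to 1497 in HCT-RNAi and 491 to 539 in WT. The excess of 3′ over 5′ signal of the actin control was 2.04 ± 0.10 in ccr-1, 2.23 ± 0.11 in HCT-RNAi and 1.94 ± 0.06 in WT on the log2 scale (SD, n = 3 each). That of the GAPDH control was 0.36 ± 0.11 in ccr-1, 0.48 ± 0.09 in HCT-RNAi and 0.41 ± 0.08 in WT. The part of organ or tissue content or RNA quality in the results below was not tested.

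The median member was 1.87 lower than WT in ccr-1 (range -4.12 to -1.503) and 2.34 lower in HCT-RNAi (range -4.88 to -1.501) on the log2 scale. The lowest measured value in ccr-1 belongs to AT4G03156, which had no present call there and for which only a bound holds. Over all 22746 probe sets the medians were -0.04 in ccr-1 and -0.01 in HCT-RNAi. The threshold was passed by 263 probe sets (1.16%) in ccr-1 and by 634 (2.79%) in HCT-RNAi, so the members are 70.7% of the ccr-1 list and 29.3% of the HCT-RNAi list. Both comparisons use the same 3 WT arrays. For this reason the shared count is a property of the rule, and nothing is read from it. With the deeper threshold of -2 in both lines 56 probe sets were left, and with -3 there were 5. The members just inside the threshold were IQD10, which differed by -2.07 in ccr-1 and -1.501 in HCT-RNAi, and HRD, which differed by -1.503 in ccr-1 and, with no present call in HCT-RNAi, was at least 5.25-fold lower than WT there. Outside it, the fibre wall regulator SND1 (-1.499 in ccr-1, -1.76 in HCT-RNAi) and the kinase gene cdc2cAt (-1.49 and -1.83) were not counted.

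**Figure D1:**
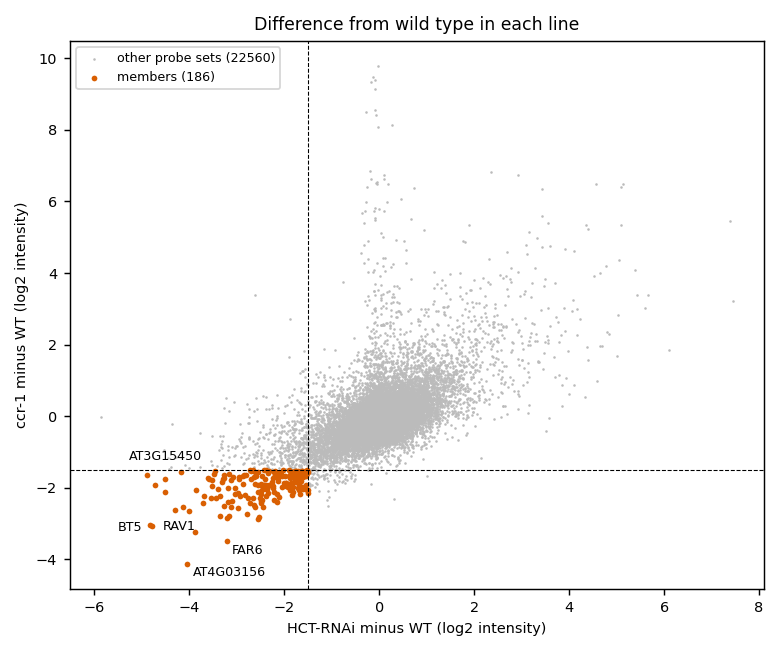
Each point is a probe set, placed by its mean log2 intensity in HCT-RNAi minus WT (x axis) and in ccr-1 minus WT (y axis), with 3 arrays per group. The 186 members (orange) fill the corner below -1.5 on both axes (dashed lines), and they reach further along the HCT-RNAi axis (to -4.88) than along the ccr-1 axis (to -4.12).

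The authors' detection calls, which mark a probe set as present, marginal or absent on each array, show which of these levels stood above background. Of the members, 183 were called present on all 3 WT arrays and 133 on all 9 arrays. For 2 members, the kinase gene AT5G59670 and a probe set shared by related kinase genes, no WT array had a present call, so their difference from WT was not measured above background. In ccr-1, 9 members had no present call, and in HCT-RNAi 16 had none. The 4 with no present call in either line were PP2-A5, AT4G03156, AT5G14470 and IOS1. For members with no present call in a line only a bound on the fold can be given. AT4G03156, annotated as related to small GTPases, was the extreme case. It had log2 intensities of 3.44, 3.29 and 3.51 in ccr-1, 3.43, 3.52 and 3.53 in HCT-RNAi and 7.44, 7.50 and 7.65 in WT. It was at least 15.8-fold lower than WT in ccr-1 and at least 16.4-fold lower in HCT-RNAi. FAR6, a fatty acyl reductase of the family that makes fatty alcohols, had 4.10, 4.00 and 4.00 in ccr-1, 4.40, 4.37 and 4.20 in HCT-RNAi and 7.60, 7.55 and 7.45 in WT. It was at least 11.3-fold lower in ccr-1 and 9.25-fold lower in HCT-RNAi. In these 2 transcripts the WT arrays stood apart from all line arrays by more than 3 units on the log2 scale.

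The lines were also set against each other, as the ccr-1 minus HCT-RNAi difference in a limma fit over all 22746 probe sets with Benjamini-Hochberg adjustment, called at an adjusted p under 0.05. The rule used the values of both lines, and its threshold was passed by more probe sets in HCT-RNAi than in ccr-1. The counts of members in each direction are therefore in part set by the rule, and they are given as a description. Among members 112 were higher in ccr-1 (60.2%, against 25.4% of all probe sets) and 16 were lower (8.60%, against 33.6%). The other 58 did not pass. At least a 2-fold difference was found higher in ccr-1 for 41 members (22.04%, against 4.8% of all probe sets) and lower in ccr-1 for 0 members (2.97% of all). The arrays of the lines did not overlap for 112 members with ccr-1 above (60.2%, against 27.7%) and for 18 with ccr-1 below (9.68%, against 35.4%). The median difference was 0.34 over members and -0.01 over all probe sets, with a median SE of 0.08 (n = 3 arrays each).

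Each gene's own adjusted p, given below, comes from the fit on the whole table. For members it is a description too, because the rule used both lines. A member close to the threshold in 1 line has little room for the other direction. Examples are IQD10 (-1.501), ATCSLA09 (-1.51) and AT5G25930 (-1.53) in HCT-RNAi. In ccr-1 they are ERF1A, ZAT10 and MYB55 (each -1.51) and SYP122, UGT76B1 and AT3G50560 (each -1.53). Scaling moved the background: of all probe sets called, 43.1% were higher in ccr-1 with the deposited values and 53.8% after each array was centred on its median. Under that centring 117 members were higher in ccr-1 and 13 were lower. For 6 members (3.23%, against 0.523% of all probe sets) the 3 ccr-1 arrays held the same value, namely TCH3, ERF2, HRD, AT1G22890, AT5G19240 and AT5G25440. The spread between ccr-1 arrays is therefore 0 for these 6 as deposited, and the fit's SE borrows from the other groups and probe sets.

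**Figure D2:**
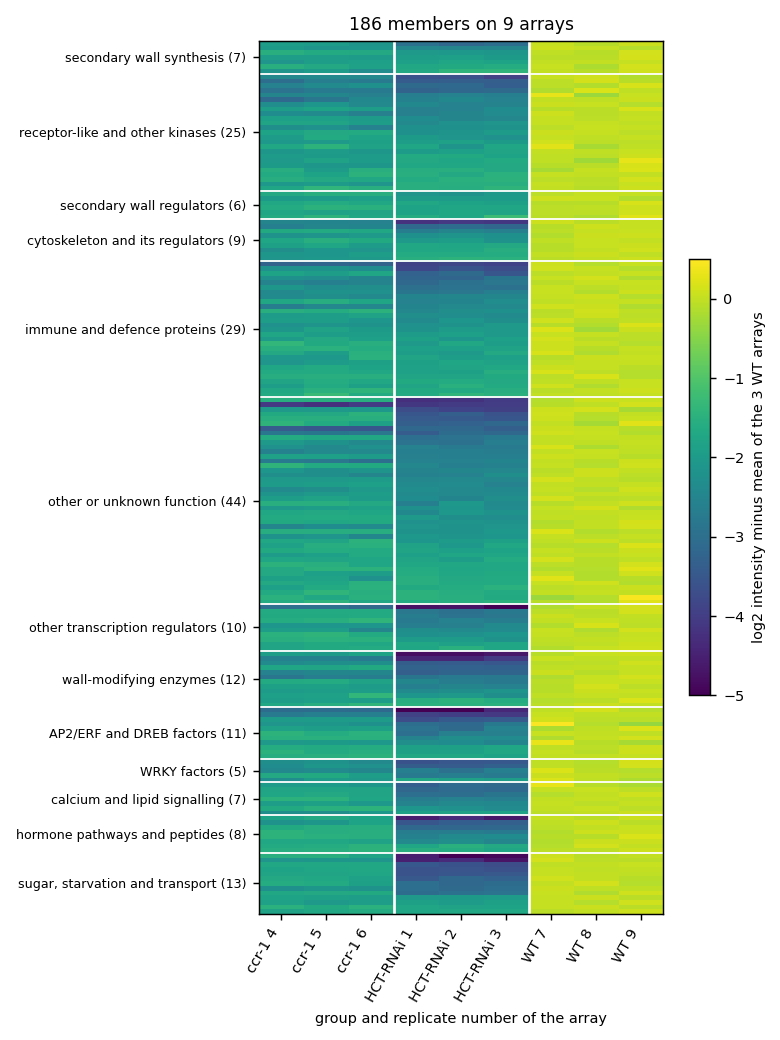
Each row is 1 of the 186 members and each column 1 of the 9 arrays; the colour gives the log2 intensity minus the mean of the 3 WT arrays, and rows are grouped by role with the number of members in brackets. The 3 arrays of a line resemble each other, and the darkest cells, near -5, lie in the HCT-RNAi columns of the sugar, hormone, wall-modifying and transcription factor groups.

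Members were placed in 13 groups by the role of their product, after their values had been seen, so the groups are a description. Calls between the lines within each group below stand beside 25.4% of all probe sets higher in ccr-1 and 33.6% lower. Over all members these shares were 60.2% and 8.60%. Receptor-like and other kinases held 25 members, immune and defence proteins 29, and AP2/ERF and DREB factors 11. There were 13 members of sugar, starvation and transport, 12 wall-modifying enzymes, 6 regulators and 7 enzymes of the secondary wall, and 44 of other or unknown function. In the gene descriptions of the authors' deposited table, the word kinase, of any kind, stood in 13.98% of members. It stood in 5.45% of the other 3597 probe sets of that table. WRKY stood in 2.69% of members and 0.334% of the rest. Ankyrin stood in 3.23% of members and 0.250% of the rest, and ERF, DREB or AP2 in 5.91% and 1.31%. The phrase unknown protein was about as common in members (12.9%) as in the rest (14.5%).

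**Figure D3:**
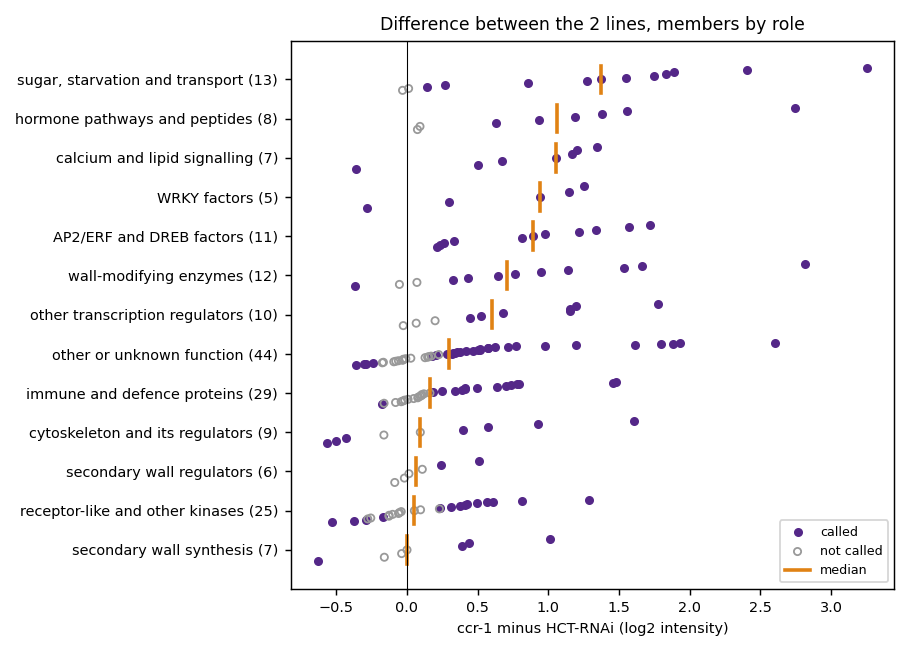
Each point is a member, placed by its mean log2 intensity in ccr-1 minus HCT-RNAi (x axis) and grouped by role (rows, number of members in brackets); filled points were called in the limma fit and orange bars are medians. The medians of secondary wall and kinase groups lie near 0, and that of the sugar and starvation group at 1.37.

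Of the 13 secondary wall members, 7 did not pass between the lines, and the others were called in both directions. The median difference between ccr-1 and HCT-RNAi was 0.06 over the 6 regulators, of which 2 were higher in ccr-1 and 4 did not pass, and 0.00 over the 7 enzymes, of which 3 were higher, 1 was lower and 3 did not pass. NST2, a NAC factor able to switch on secondary wall formation, had log2 intensities of 6.38, 6.42 and 6.48 in ccr-1, 6.41, 6.42 and 6.40 in HCT-RNAi and 8.46, 8.43 and 8.24 in WT. The line arrays overlapped, and the difference of 0.01 had a 95% interval of -0.13 to 0.16. SND2, another NAC factor of the wall cascade, had 8.90, 8.82 and 8.87 in ccr-1, 8.84, 8.92 and 8.87 in HCT-RNAi and 10.61, 10.60 and 10.75 in WT, again with overlapping lines (-0.02, 95% interval -0.15 to 0.11). VND6, which drives vessel differentiation, was 1.60 lower than WT in ccr-1 and 1.51 lower in HCT-RNAi. NAC075, a further NAC factor, was lower by 1.69 and 1.80 in the same order.

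The 2 MYB factors among the member regulators, MYB20 and MYB103, were the exceptions, with ccr-1 above HCT-RNAi. Both lay near the threshold in ccr-1 (-1.59 and -1.53), so the rule favoured this direction. MYB20, an activator of secondary wall and lignin genes, had 7.16, 7.27 and 7.29 in ccr-1, 6.71, 6.66 and 6.82 in HCT-RNAi and 8.78, 8.85 and 8.86 in WT. It was 0.51 ± 0.06 (SE, n = 3 arrays each) above HCT-RNAi in ccr-1, with a limma adjusted p of 1.29e-05. MYB103, needed for syringyl lignin, was 0.24 ± 0.06 higher in ccr-1 (adjusted p = 0.00396 in the limma fit).

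Among the enzymes, GUX1, which adds glucuronic acid side groups to xylan, had 9.14, 9.13 and 9.07 in ccr-1, 9.11, 9.16 and 9.07 in HCT-RNAi and 10.98, 10.997 and 11.20 in WT. The lines overlapped (difference 0.00, 95% interval -0.14 to 0.15), and both lay more than 1.8 below WT. CESA7, a subunit of the cellulose synthase of secondary walls, had 9.84, 10.02 and 10.07 in ccr-1, 10.06, 10.20 and 10.15 in HCT-RNAi and 11.95, 11.96 and 11.97 in WT. Its difference between lines, -0.16 ± 0.07, did not pass (limma adjusted p = 0.0607) but passed in 5 of 15 alternative settings, among them without ccr-1 replicate 6 (-0.21, adjusted p = 0.0249) and without HCT-RNAi replicate 1 (-0.20, adjusted p = 0.0429). CTL2, a chitinase-like protein needed for ordered cellulose deposition, was lower than WT by 1.69 in ccr-1 and 1.65 in HCT-RNAi. GXM3, which methylates the glucuronic acid of xylan, was 0.44 ± 0.06 above HCT-RNAi in ccr-1 (limma adjusted p = 6.87e-05).

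LAC4, a laccase that polymerises lignin in fibres and vessels, had log2 intensities of 10.28, 10.14 and 10.17 in ccr-1, 9.84, 9.78 and 9.80 in HCT-RNAi and 12.37, 12.31 and 12.19 in WT. All ccr-1 arrays lay above all HCT-RNAi arrays, by 0.39 ± 0.06 (limma adjusted p = 0.000161). ATCSLA09, a synthase of the mannan backbone of glucomannan, was lower in ccr-1 instead. It had 10.12, 10.31 and 9.98 in ccr-1, 10.59, 10.84 and 10.86 in HCT-RNAi and 12.26, 12.17 and 12.38 in WT, and was 0.63 ± 0.10 below HCT-RNAi in ccr-1 (difference -0.63, limma adjusted p = 0.000106). Its relative CSLA03, picked after its values were seen, was 1.01 above HCT-RNAi in ccr-1 (limma adjusted p = 2.1e-07).

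The rest of the wall genes can be read from lists of known genes. Of 314 entries on 15 lists 213 could be named and 200 of these lie in the authors' deposited table. That table lists probe sets because they changed here, which inflates the counts of changed genes below. Of the list for cellulose and xylan of the secondary wall, 4 of 18 named genes were members. The other 14 were all lower in ccr-1, where 30.1% of all probe sets were lower and 24.7% higher. All 14 were lower in HCT-RNAi too, where 27.7% of all probe sets were lower and 32.9% higher. Their median differences were -1.26 in ccr-1 and -1.31 in HCT-RNAi. CESA4 (-1.68 in ccr-1, -1.24 in HCT-RNAi) and CESA8 (-1.39 and -1.24), the partners of CESA7, missed the threshold in HCT-RNAi or in both lines. FLA12, a fasciclin-like arabinogalactan protein, differed by -1.34 in ccr-1 and -3.16 in HCT-RNAi.

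On the list of secondary wall transcription factors 5 of 17 named genes were members. Of the other 12, 11 were lower and 1 was higher in ccr-1, with 10 lower and 2 higher in HCT-RNAi. XND1, a NAC factor that restrains xylem differentiation, was higher in ccr-1 (1.00) and in HCT-RNAi (0.79), the opposite of the members. MYB4, a repressor of phenylpropanoid genes, was lower in ccr-1 (-0.78) and higher in HCT-RNAi (0.56). The list of monolignol synthesis held 0 members among 10 named genes, although 8 of the 10 were lower in each line. 4CL3 (1.39 in ccr-1, 1.55 in HCT-RNAi) and CCR2 (0.17 and 0.36) were higher in both. Of the 10 named laccase and peroxidase genes that were not members, 6 were lower in each line. In ccr-1 4 were higher, and in HCT-RNAi 2 were. PRX25 (1.63 in ccr-1, 1.13 in HCT-RNAi) and PRX52 (1.79 and 1.89) were higher in both.

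**Figure D4:**
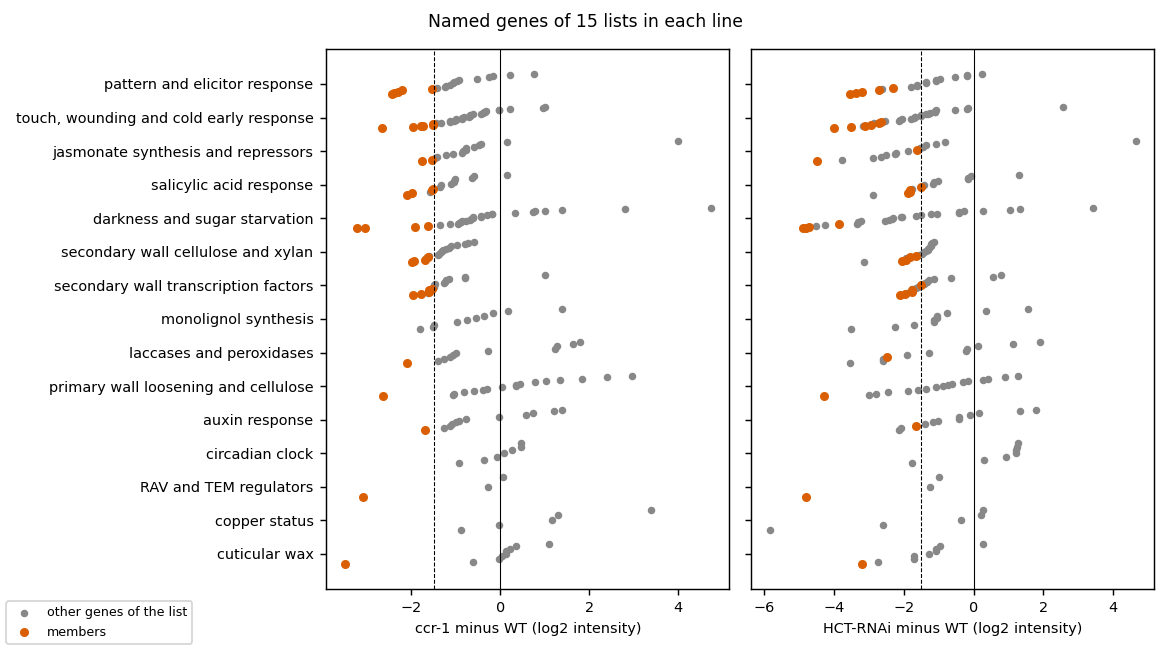
Each point is a named gene of 1 of 15 lists, placed by its mean log2 intensity in ccr-1 minus WT (left) and HCT-RNAi minus WT (right); members are orange, and the dashed line is the threshold of -1.5. The medians of the 2 secondary wall lists differ little between the panels, although single genes such as FLA12, XND1 and MYB4 lie apart. The touch, jasmonate and starvation lists reach further down in the HCT-RNAi panel.

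Members of the cytoskeleton group, structures and regulators that guide where cellulose is laid down, were called in both directions between the lines. Of 9, 3 were below HCT-RNAi in ccr-1, a share close to the 33.6% of all probe sets, 4 were higher and 2 did not pass. IQD10, a calmodulin-binding protein of the IQ67 domain family, had log2 intensities of 8.47, 8.54 and 8.58 in ccr-1, 9.04, 9.15 and 9.11 in HCT-RNAi and 10.52, 10.59 and 10.69 in WT. The groups did not overlap, and ccr-1 lay 0.57 ± 0.06 below HCT-RNAi (difference -0.57, limma adjusted p = 5.08e-06). IQD10 sat at the threshold in HCT-RNAi, so the rule nearly fixed this direction. XIF, a class XI myosin that moves cargo along actin, differed by -0.50 ± 0.07 and AIR9, a microtubule-associated protein, by -0.43 ± 0.06 in the same direction (limma adjusted p = 6.19e-05 and 6.53e-05). SP1L5, a relative of the microtubule protein SPIRAL1, was the opposite. It had 7.37, 7.33 and 7.30 in ccr-1, 5.65, 5.77 and 5.76 in HCT-RNAi and 9.93, 9.78 and 9.86 in WT, so that ccr-1 was 1.61 ± 0.06 above HCT-RNAi (limma adjusted p = 3.34e-10). The β-tubulin gene TUB8, picked after its values were seen, was higher in ccr-1 by 0.92 (limma adjusted p = 5.21e-08).

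The 25 members placed under receptor-like and other kinases had a median difference of 0.05 between the lines, with calls in both directions. They include RLP19, RLP46 and AT3G22060, which lack a kinase domain. Of these 10 were higher in ccr-1, 4 were lower and 11 did not pass. FLS2, the receptor of bacterial flagellin, had log2 intensities of 6.02, 6.22 and 6.35 in ccr-1, 5.47, 5.46 and 5.23 in HCT-RNAi and 8.54, 8.45 and 8.75 in WT. All 3 groups were apart, and ccr-1 was 0.81 ± 0.10 above HCT-RNAi (limma adjusted p = 1.72e-05). AT5G25440, a gene of the protein kinase superfamily, was 2.43 lower than WT in ccr-1 and 3.71 lower in HCT-RNAi, and AT3G22060, which carries the extracellular domain of cysteine-rich kinases without a kinase domain, was 2.79 and 3.36 lower. AT5G25930, a leucine-rich repeat kinase gene, was below HCT-RNAi in ccr-1 by 0.53 ± 0.06 (difference -0.53, limma adjusted p = 4.73e-06), as was AT4G10390 (-0.37 ± 0.07, limma adjusted p = 0.000582). AT5G25930 lay near the threshold in HCT-RNAi (-1.53), so the rule favoured this direction.

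Cysteine-rich receptor-like kinases (CRK), a large family at the plasma membrane, gave 4 members with a name. CRK10 had 9.39, 9.39 and 9.31 in ccr-1, 8.97, 8.80 and 8.84 in HCT-RNAi and 11.31, 11.25 and 11.31 in WT, with ccr-1 above HCT-RNAi by 0.50 ± 0.06 (limma adjusted p = 1.36e-05). CRK14 was 0.23 ± 0.08 higher in ccr-1 (limma adjusted p = 0.0278), a call lost in 5 of 15 alternative settings. It did not pass without ccr-1 replicate 5 (0.15, adjusted p = 0.124), ccr-1 replicate 4 (adjusted p = 0.0501), HCT-RNAi replicate 2 (adjusted p = 0.089) or HCT-RNAi replicate 3 (adjusted p = 0.0734). CRK41 (0.05) and CRK34 (-0.10) did not pass, and their line arrays overlapped. The receptor-like proteins RLP19 and RLP46, which lack a kinase domain, lay near each other in the lines: RLP19 differed by -0.17 ± 0.06 (limma adjusted p = 0.0316, lost in 7 of 15 settings, where values ran from -0.21 to -0.09) and RLP46 by -0.05, which did not pass.

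The 29 immune and defence members held 14 that were higher in ccr-1, 1 that was lower and 14 that did not pass. XBAT34, an ankyrin-repeat protein with a RING domain, had the deepest fall among them. It had log2 intensities of 6.87, 6.91 and 6.87 in ccr-1, 6.23, 6.27 and 6.22 in HCT-RNAi and 10.18, 10.00 and 10.14 in WT. It was 3.23 lower than WT in ccr-1 and 3.87 lower in HCT-RNAi, and 0.64 ± 0.06 above HCT-RNAi in ccr-1 (limma adjusted p = 1.23e-06). AT3G16530, a lectin-like gene induced by chitin oligomers according to the authors' deposited table, was 1.45 ± 0.08 above HCT-RNAi in ccr-1 (limma adjusted p = 6.82e-09). SYP122, a syntaxin of secretion at the plasma membrane, was 0.79 ± 0.07 higher in ccr-1 (limma adjusted p = 1.05e-06).

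The list of the response to salicylic acid, a hormone that guards against pathogens of living tissue, held the members PR5, GRX480, UGT76B1 and WRKY54, of which GRX480 did not pass between the lines. WRKY54 is described with its family below. PR5, a thaumatin-like pathogenesis-related protein, had 7.79, 7.98 and 8.05 in ccr-1, 8.06, 8.19 and 8.09 in HCT-RNAi and 9.89, 9.95 and 9.95 in WT. Its difference of -0.18 ± 0.07 passed in the limma fit (adjusted p = 0.0449) and was lost in 11 of 15 alternative settings, where adjusted p ran from 0.0156 to 0.259. GRX480, a glutaredoxin that links salicylic acid to jasmonate genes, was at 5.80, 6.17 and 5.81 in ccr-1, 5.81, 6.03 and 5.92 in HCT-RNAi and 7.43, 7.41 and 7.46 in WT. The lines overlapped, and their difference of 0.01 had a 95% interval of -0.19 to 0.21. UGT76B1, a glycosyltransferase that tempers the response, was 0.34 ± 0.06 higher in ccr-1 (limma adjusted p = 0.000273). Of the 10 named genes of this list that were not members, 9 were lower in ccr-1 and 6 in HCT-RNAi. ICS1, the enzyme of salicylic acid synthesis, was higher in HCT-RNAi (1.31) and did not pass in ccr-1 (0.15). PR1 was lower in ccr-1 (-1.01) and did not pass in HCT-RNAi (-0.07).

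Several immune members did not separate the lines. The intracellular receptor gene ZAR1, picked after its values were seen, had 8.76, 8.94 and 9.03 in ccr-1, 8.80, 8.82 and 8.87 in HCT-RNAi and 10.38, 10.45 and 10.53 in WT. PP2-A5, a lectin-domain relative of phloem protein 2, was at least 3.94-fold lower than WT in ccr-1 and at least 4.16-fold lower in HCT-RNAi. IOS1, a leucine-rich repeat kinase of pattern signalling picked in the same way, was at least 5.74-fold lower in ccr-1 and at least 6.14-fold lower in HCT-RNAi. No order between the lines can be given for PP2-A5 and IOS1, which had no present call in either.

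Transcription factors of the early stress response had ccr-1 above HCT-RNAi in most cases. All 5 WRKY members and all 11 AP2/ERF and DREB members were called between the lines, 15 of these higher in ccr-1 and 1 lower. Of all probe sets 25.4% were higher and 33.6% lower, and of all members 60.2% were higher. At least a 2-fold difference was found for 2 WRKY and 4 AP2/ERF and DREB members. The median difference was 0.94 over the WRKY factors and 0.89 over the AP2/ERF and DREB factors. WRKY40 and WRKY18, related factors that act together in pathogen responses, led the family. WRKY40 had log2 intensities of 7.01, 7.09 and 6.86 in ccr-1, 5.66, 5.77 and 5.79 in HCT-RNAi and 9.25, 9.16 and 9.43 in WT, and was 1.25 ± 0.08 above HCT-RNAi in ccr-1 (limma adjusted p = 4.68e-08). WRKY18 had 7.88, 8.12 and 7.99 in ccr-1, 6.83, 6.81 and 6.91 in HCT-RNAi and 10.19, 10.11 and 10.33 in WT, with ccr-1 1.15 ± 0.08 above HCT-RNAi (limma adjusted p = 5.77e-08). The 3 groups were fully apart in both genes, in the order WT, ccr-1, HCT-RNAi.

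WRKY25 followed the same order (0.94 ± 0.07, limma adjusted p = 2.88e-07). WRKY53, which promotes leaf senescence, had nearly equal levels in the lines: 5.23, 5.27 and 5.20 in ccr-1 and 5.03, 4.75 and 5.04 in HCT-RNAi, against 7.86, 7.59 and 7.54 in WT. Its difference of 0.29 ± 0.09 (limma adjusted p = 0.0166) was lost without HCT-RNAi replicate 2 (0.20, adjusted p = 0.0823) and after a further quantile normalization (adjusted p = 0.0946). WRKY54, a relative of WRKY70 that acts downstream of salicylic acid, was the WRKY member lower in ccr-1. It had no present call in ccr-1, where it was at least 4.3-fold below WT, and 1 in HCT-RNAi. It was brighter in HCT-RNAi by at least 1.22-fold (limma adjusted p = 0.0403), a call lost in 6 of 14 alternative settings, where adjusted p ran from 0.0111 to 0.181. The ccr-1 minus HCT-RNAi difference of WRKY54 had a 95% interval of -0.52 to -0.05 on the log2 scale.

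RAV1, which joins an AP2 to a B3 DNA-binding domain and restrains growth and flowering, was the member furthest below WT in the AP2/ERF group. It had log2 intensities of 6.81, 6.81 and 6.74 in ccr-1, 4.86, 4.83 and 5.50 in HCT-RNAi and 9.83, 9.99 and 9.75 in WT. It was 8.43-fold below WT in ccr-1 and, with no present call in HCT-RNAi, at least 27.8-fold below WT there. It was at least 3.29-fold brighter in ccr-1 than in HCT-RNAi (limma adjusted p = 4.59e-07). The ccr-1 minus HCT-RNAi difference of RAV1 had a 95% interval of 1.41 to 2.03 on the log2 scale. Its relatives TEM1 (-0.27 in ccr-1, -1.24 in HCT-RNAi) and RAV2 (0.06, which did not pass, and -0.99) were not members.

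ERF109, a factor of wounding and redox stress, had 5.42, 5.50 and 5.50 in ccr-1, 4.22, 4.16 and 4.05 in HCT-RNAi and 8.17, 8.10 and 8.13 in WT. It was 6.31-fold below WT in ccr-1 and, with no present call in HCT-RNAi, at least 15.9-fold below WT there. ERF2, an ethylene response factor that activates defence genes, had 7.77 on each ccr-1 array, 6.01, 6.27 and 6.30 in HCT-RNAi and 9.82, 9.67 and 9.67 in WT, with ccr-1 1.57 ± 0.08 above HCT-RNAi (limma adjusted p = 4.41e-09). ERF1A differed by 1.21 ± 0.09 and ORA47, an activator of jasmonate synthesis, by 0.98 ± 0.12 in the same direction (limma adjusted p = 2.37e-07 and 1.94e-05). ORA59, where jasmonate and ethylene signals meet, differed by 0.33 ± 0.11 (limma adjusted p = 0.0252), a call lost in 5 of 14 alternative settings. Among these 5 were the fits without ccr-1 replicate 4 (0.33, adjusted p = 0.0594), ccr-1 replicate 5 (0.32, adjusted p = 0.0621) and HCT-RNAi replicate 3 (0.26, adjusted p = 0.105).

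Other regulators of transcription followed, with 7 of 10 higher in ccr-1, 0 lower and 3 that did not pass. BT5, a BTB and TAZ domain scaffold protein, had log2 intensities of 6.68, 6.69 and 6.51 in ccr-1, 4.93, 4.95 and 4.66 in HCT-RNAi and 9.52, 9.68 and 9.80 in WT. The 3 groups were apart by more than 1.5 units at each step, and ccr-1 was 1.78 ± 0.09 above HCT-RNAi (limma adjusted p = 7.04e-09). ZAT10, a zinc finger repressor induced by many stresses, was 1.15 ± 0.07 higher in ccr-1 (limma adjusted p = 1.67e-08), and NAC036 1.20 ± 0.07 (limma adjusted p = 1.85e-08). MYB55 was 0.53 ± 0.07 higher in ccr-1 (limma adjusted p = 2.95e-05). ZAT10 and MYB55 lay near the threshold in ccr-1 (-1.51 each), so the rule favoured this direction. IAA29, an auxin-induced repressor of auxin signalling, had 5.05, 5.16 and 5.20 in ccr-1, 5.08, 5.32 and 5.09 in HCT-RNAi and 6.68, 6.87 and 6.93 in WT, with overlapping lines.

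Calcium and lipid signalling gave 7 members, 6 higher in ccr-1 and 1 lower. TCH3, a calmodulin-like calcium sensor named for its induction by touch, had a log2 intensity of 10.41 on each ccr-1 array, 9.01, 9.12 and 9.07 in HCT-RNAi and 12.22, 12.22 and 12.14 in WT. It was 1.34 ± 0.05 above HCT-RNAi in ccr-1 (limma adjusted p = 5.89e-10). CML38, another calmodulin-like protein, had 6.76, 6.86 and 6.74 in ccr-1, 5.55, 5.52 and 5.68 in HCT-RNAi and 8.43, 8.53 and 8.65 in WT, with ccr-1 1.21 ± 0.07 higher (limma adjusted p = 1.65e-08). In both genes ccr-1 lay between the other groups. PLC1, a phospholipase C picked after its values were seen, was the member lower in ccr-1, by 0.36 ± 0.06 (difference -0.36, limma adjusted p = 0.000352).

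**Figure D5:**
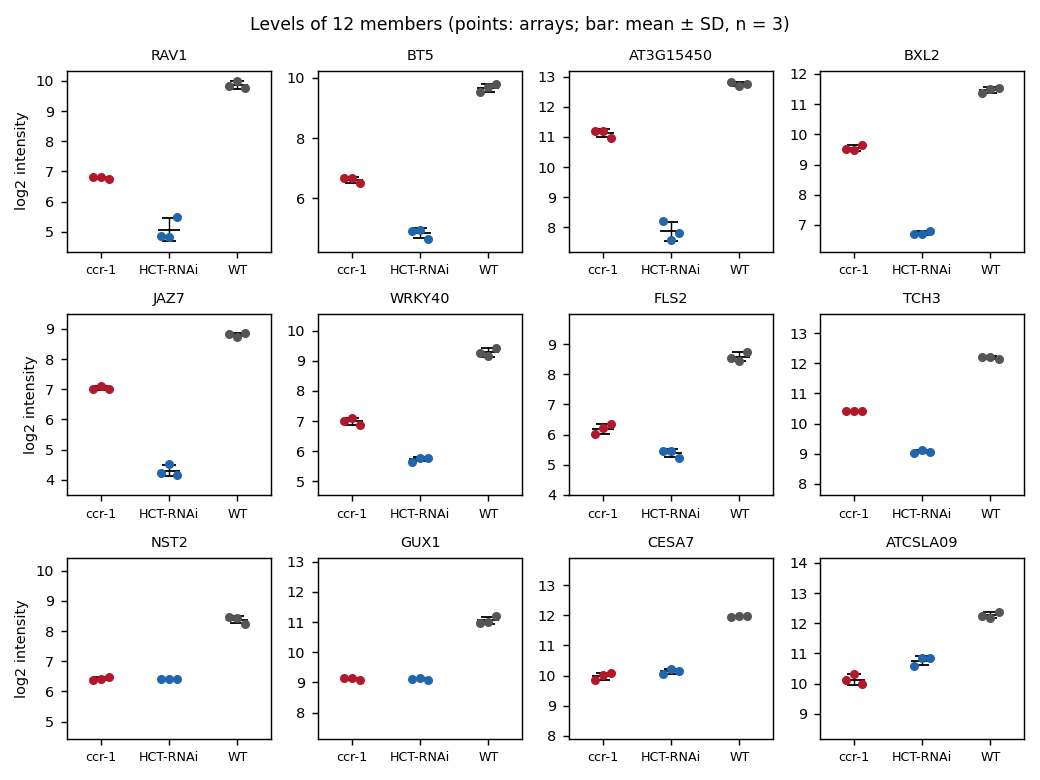
Each panel shows the log2 intensity of 1 member on the 9 arrays (points) with the mean and SD of each group (n = 3); all panels span 6 log2 units. In the upper 8 panels the arrays of ccr-1 lie between those of HCT-RNAi and WT; in NST2, GUX1 and CESA7 the line arrays overlap, and in ATCSLA09 ccr-1 lies below HCT-RNAi.

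Lists of the immediate response to microbes and to touch put these members in context. On the list of pattern and elicitor response 5 of 18 named genes were members. Of the other 13, 10 were lower in each line. CML41, a calcium sensor of plasmodesmal closure, was higher in ccr-1 (0.76) and lower in HCT-RNAi (-1.80). RBOHD, the oxidase of the defence oxidative burst, differed from WT by -1.12 in ccr-1 and -0.53 in HCT-RNAi, and between the lines by -0.59. On the list of touch, wounding and cold response 6 of 30 named genes were members. Of the other 24, 19 were lower and 3 higher in ccr-1, and 22 were lower and 1 higher in HCT-RNAi, with median differences of -0.68 in ccr-1 and -1.504 in HCT-RNAi. CBF3, the cold response factor, was the gene higher in HCT-RNAi (2.56) and did not pass in ccr-1 (-0.02). ZAT6 (0.97), DREB26 (1.00) and EXO (0.22) were the genes higher in ccr-1, and all 3 were lower in HCT-RNAi (-0.18, -0.54 and -2.14).

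Among 8 members of hormone pathways and signal peptides 6 were higher in ccr-1 and 2 did not pass. JAZ7, a repressor of jasmonate signalling that jasmonate itself induces, had log2 intensities of 7.00, 7.12 and 7.00 in ccr-1, 4.24, 4.51 and 4.15 in HCT-RNAi and 8.82, 8.74 and 8.86 in WT. It was 1.77 lower than WT in ccr-1 and 4.51 lower in HCT-RNAi, and 2.74 ± 0.08 (6.69-fold) above HCT-RNAi in ccr-1 (limma adjusted p = 5.3e-11). JAZ5, of the same family, had 8.76, 8.79 and 8.89 in ccr-1, 8.82, 8.75 and 8.60 in HCT-RNAi and 10.31, 10.30 and 10.42 in WT. The lines overlapped in JAZ5 (0.09, 95% interval -0.06 to 0.24), unlike in JAZ7.

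Of the 13 other named genes of jasmonate synthesis and repression, 11 were lower and 1 higher in ccr-1, and 12 were lower and 1 higher in HCT-RNAi. JAZ8 (-1.41 in ccr-1, -3.77 in HCT-RNAi) and JAZ10 (-0.47 and -2.90) showed the wide gap of JAZ7. LOX2, a plastid lipoxygenase, was the gene higher in both lines, by 4.00 in ccr-1 and 4.65 in HCT-RNAi. In the abscisic acid pathway, named after their values were seen, the receptor PYL4 (1.56 ± 0.05) and the degrading enzyme CYP707A3 (1.38 ± 0.09) were above HCT-RNAi in ccr-1, with limma adjusted p-values of 1.12e-10 and 7.03e-08. Both were members, so each also lay at least 1.5 below WT in each line.

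Of the role groups, that of sugar, starvation and transport had the largest median difference between the lines, 1.37. This ranking depends on how members were placed, which was done after their values were seen. The group also holds other transporters and a gene of unknown function, while BT5, BXL2 and XBAT34 of the starvation list are in other groups. Of its 13 members 11 were higher in ccr-1, at least 2-fold for 8, and 2 did not pass. AT3G15450, an aluminium-induced protein with YGL and LRDR motifs by the authors' deposited table, had log2 intensities of 11.20, 11.19 and 10.98 in ccr-1, 8.20, 7.58 and 7.83 in HCT-RNAi and 12.83, 12.69 and 12.75 in WT. It was 1.63 lower than WT in ccr-1 and 4.88 lower in HCT-RNAi. The difference between lines, 3.25 ± 0.12 or 9.53-fold, was the largest of any member (limma adjusted p = 3.87e-10). AT3G06070, of unknown function, had 7.73, 7.78 and 7.74 in ccr-1, 5.35, 5.54 and 5.15 in HCT-RNAi and 9.99, 9.81 and 9.79 in WT, a difference of 2.40 ± 0.09 between lines (limma adjusted p = 2.96e-10).

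ERD6, a sugar transporter first found among genes induced by dehydration, was 1.83 ± 0.05 above HCT-RNAi in ccr-1 (limma adjusted p = 3.57e-11). ERD7, found in the same dehydration screen but not a transporter, did not differ beyond its spread (0.03, 95% interval -0.12 to 0.18). PP2-A13, an F-box protein with a phloem lectin domain, was 1.75 ± 0.05 higher in ccr-1 (limma adjusted p = 5.39e-11), in contrast to PP2-A5, which had no present call in either line. NIA1, a nitrate reductase picked after its values were seen, had 8.34, 8.47 and 8.38 in ccr-1, 7.57, 7.46 and 7.58 in HCT-RNAi and 10.63, 10.53 and 10.54 in WT.

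The list of darkness and sugar starvation placed 4 of 27 named genes among the members: BT5, AT3G15450, BXL2 and XBAT34. Of the other 23, 16 were lower and 7 higher in ccr-1, and 19 were lower and 4 higher in HCT-RNAi, with medians of -0.44 and -2.06. In ccr-1 minus HCT-RNAi 21 of the 23 were higher (against 25.4% of all probe sets) and 2 were lower. DIN10, a gene of raffinose breakdown, differed by -0.95 in ccr-1 and -4.53 in HCT-RNAi, and BXL1, the relative of BXL2, by -0.20 and -3.24. BGLU30 (4.73 in ccr-1, 3.43 in HCT-RNAi), ASN1 (2.81 and 1.04), BT4 (1.00 and 1.32) and LKR (0.73 and 0.28) were higher in both. SEN1, a dark-induced gene, was higher in ccr-1 (1.39) and lower in HCT-RNAi (-1.06), as was DIN4 (0.79 and -0.41). Clock genes moved on the same arrays: of 7 named, 6 were higher and RVE1 was lower in HCT-RNAi, while 3 were higher and 2 lower in ccr-1. Whether the time of harvest had a part in the starvation genes was not tested.

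Wall-modifying enzymes, which loosen or trim polysaccharides in the growing wall, were higher in ccr-1 for 9 of 12 members, lower for 1, and did not pass for 2. BXL2, a β-xylosidase, had log2 intensities of 9.52, 9.47 and 9.65 in ccr-1, 6.70, 6.70 and 6.81 in HCT-RNAi and 11.36, 11.49 and 11.53 in WT. It was 1.91 lower than WT in ccr-1 and 4.73 lower in HCT-RNAi, a gap of 2.81 ± 0.07 or 7.03-fold between lines (limma adjusted p = 6.27e-12). XTH18, an enzyme that cuts and rejoins xyloglucan, had 6.56, 6.55 and 6.43 in ccr-1, 4.74, 4.73 and 5.08 in HCT-RNAi and 9.19, 9.11 and 9.13 in WT, with ccr-1 1.66 ± 0.09 above HCT-RNAi (limma adjusted p = 6.58e-09). In both enzymes the groups were fully apart.

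BGLU46, a β-glucosidase that can free lignin monomers from their glucosides, had 7.28, 7.36 and 7.36 in ccr-1, 6.49, 6.60 and 6.61 in HCT-RNAi and 9.90, 9.75 and 9.85 in WT. It was 0.77 ± 0.06 above HCT-RNAi in ccr-1 (limma adjusted p = 2.93e-07). RXF12, a xylanase picked after its values were seen, had 6.49, 6.68 and 6.67 in ccr-1, 6.48, 6.59 and 6.56 in HCT-RNAi and 9.19, 9.37 and 9.45 in WT, so the lines overlapped while both lay more than 2.5 below WT. Of the 16 other named genes of primary wall loosening and cellulose, 9 were higher and 6 lower in ccr-1, and 4 were higher and 11 lower in HCT-RNAi. EXPA8 (1.82 in ccr-1, -1.59 in HCT-RNAi) and XTH19 (0.34 and -2.79), a relative of XTH18, were called in opposite directions in the lines.

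The remaining lists had 1 member or none. FAR6 was the member of the cuticular wax list. Of the 8 other named wax genes, 3 were higher and 1 lower in ccr-1, and 7 were lower and 1 higher in HCT-RNAi. FAR6, with no present call in ccr-1, was at least 1.22-fold brighter in HCT-RNAi (limma adjusted p = 0.00296). Its ccr-1 minus HCT-RNAi difference had a 95% interval of -0.44 to -0.14 on the log2 scale. In ccr-1 minus HCT-RNAi the 8 others were all higher (against 25.4% of all probe sets). IAA29 was the member of the auxin list, on which 6 of 11 others were lower and 4 higher in ccr-1, with 7 lower and 3 higher in HCT-RNAi. Copper status and the circadian clock held 0 members among 5 and 7 named genes.

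Among the 44 members of other or unknown function 25 were higher in ccr-1, 4 were lower and 15 did not pass. AT5G19240, a membrane glycoprotein with a lipid anchor by the authors' deposited table, had 8.78 on each ccr-1 array, 6.09, 6.14 and 6.29 in HCT-RNAi and 10.23, 10.41 and 10.37 in WT. The difference between lines was 2.60 ± 0.07 (6.08-fold, limma adjusted p = 1.18e-11). AT3G50560, of a family of NAD(P)-binding proteins, had 7.62 on each ccr-1 array at this rounding, 5.73, 5.71 and 5.62 in HCT-RNAi and 9.23, 9.03 and 9.18 in WT, a difference of 1.93 ± 0.06 (limma adjusted p = 8.24e-11). AT1G19380, of unknown function, was 2.05 lower than WT in ccr-1 and 3.85 lower in HCT-RNAi. AT5G28630, annotated as a glycine-rich protein, lay 2.84 log2 units below WT in ccr-1. In HCT-RNAi, where it had no present call, it was at least 9.15-fold below WT.

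The rule did not use position in the genome. Of the 178 named members 175 could be placed in gene order through a RefSeq table. They lay on all chromosomes, with 1 pair of direct neighbours, the defence gene MLO12 and AT2G39210. In 10 pairs, 20 genes in all, at most 9 genes lay between the members. They included CRK10 and CRK14, which lie in a run of related kinase genes, with 3 genes between them, and BCS1 and ZAR1 with 1. How many such pairs other sets of genes would give was not worked out, so nothing is read from this count. Nearly all member genes were read by 1 probe set. The exception was AT1G31710, whose second probe set differed by -0.17 in ccr-1 and -0.19 in HCT-RNAi, with mean log2 intensities of 3.95 in ccr-1, 3.93 in HCT-RNAi and 4.12 in WT.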

How the data were processed

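Values were linear intensities, 1 per probe set and array, as deposited by the authors. The submitters' processing notes list RMA and MAS5 without versions. RMA makes arrays alike in distribution and compresses changes near the floor. Detection calls came from the authors' deposited table, which holds 3783 probe sets besides controls and all 186 members. That table's ratios of group means, also deposited by the authors, were not used. Here log2 was taken, 64 control probe sets were left out, and limma 3.58.1 in R 4.3.3 was fitted over 9 arrays in 3 groups (lmFit, contrasts.fit, eBayes) with Benjamini-Hochberg adjustment over 22746 probe sets. The code was tested on simulated data. The number of arrays limits the precision.

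Members and gene lists were chosen with earlier results of these data known. Named genes are the 20 members lowest over both lines, members on a list, and the 6 lowest and 6 highest called between lines. Also named are those at the threshold, those sharing a family name, and some of the list genes called in the opposite direction. Other names are marked as picked after seeing values. A probe set with no present call on all arrays of a group gives "at least N-fold": the dim group's value per array is the higher of its own signal and the lowest signal called present there. This bound allows for background only where the lowest present signal was the higher, and it never allows for the spread between arrays. For RAV1, ERF109, HRD, FAR6 and WRKY54 it equals the measured fold. Names came from the platform annotation, the authors' locus column and a RefSeq gene table, which named 14895 probe sets. No sequence and no coordinate is printed, since no genome build was at hand.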

Additional observations from a re-analysis of the deposited data

How the results depend on the processing

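The number of members was 326 with a threshold looser by 0.25 log2 units and 56 at -2. It was 207 after median centring, 188 after a further quantile normalization, 143 with a mean log2 of at least 6, 130 with a pseudocount of 16, and 174 to 194 leaving out each array in turn. It was 183 with a present call on all 3 WT arrays and 179 without probe sets shared by related genes, 2 settings added after seeing the data. Leaving out 1 array gave 106 to 112 members higher and 13 to 18 lower for ccr-1 minus HCT-RNAi. For all probe sets it gave 5205 to 5768 higher and 7127 to 7607 lower for ccr-1 minus HCT-RNAi, 5231 to 5597 higher and 6317 to 6859 lower in ccr-1 than in WT, and 7044 to 7595 higher and 5661 to 6501 lower in HCT-RNAi than in WT. Median centring made the higher share of HCT-RNAi minus WT calls 39.5%, against 54.2% as deposited.

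Of 70 named members, 11 changed the sign of ccr-1 minus HCT-RNAi under some alternative, and none of the 11 was called; the cause was not tested. With median centring SND2 was 0.0564, IAA29 0.0484, CTL2 0.037 and RLP46 0.0217. With a further quantile normalization SND2 was 0.0139 and GRX480 -0.0346. Leaving out each array in turn, the difference ran CRK41 from -0.00654 to 0.137, NST2 from -0.0118 to 0.038, GUX1 from -0.0231 to 0.0248, SND2 from -0.0367 to 0.00567, IAA29 from -0.0654 to 0.0519, CTL2 from -0.103 to 0.0391. In the same fits it ran CRK34 from -0.183 to 0.043, RLP46 from -0.138 to 0.0337, VND6 from -0.187 to 0.0584, ERD7 from -0.0359 to 0.081 and GRX480 from -0.112 to 0.0702. WRKY53, WRKY54, CRK14, ORA59, RLP19 and PR5 lost their call and CESA7 gained one under the settings given with them above. No paired analysis was possible because the replicate numbers 1 to 9 are not shared between groups. RMA values near the floor understate changes, which limits the members with no present call.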
